A study of Cricetulus griseus with 24 samples.

Results

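The sirtuins are the 7 genes Sirt1 to Sirt7. They were taken by symbol from a table of 28037 genes, and all 7 had a row and passed the filter on low counts in every comparison. RNA-seq counts were measured in Chinese hamster ovary (CHO) cells, the usual host for therapeutic antibodies, at exponential and stationary phase of batch culture. A0 is a low-producing antibody clone of the DG44 line, made by co-transfecting a heavy-chain plasmid that carries a selection marker and a light-chain plasmid that carries neomycin resistance, with G418 selection that was later removed. A1 is a high-producing progeny of A0 obtained by stepwise amplification in methotrexate (MTX). CHO-S served as the non-producing control, and its samples carry the title NDST, a name the sources used here do not explain, so whether these cells were modified is not known. A0 and A1 were grown in serum-free medium, and culture conditions for CHO-S are not given in those sources. Each line is 1 clone or 1 cell line, so a difference between lines is a difference between those lines and not between low and high producers in general. There were 4 A0, 3 A1 and 3 CHO-S cultures at each phase. Each exponential A0 culture had 2 libraries, which were summed, so the 24 libraries gave 20 cultures. The labels do not say whether a stationary and an exponential flask of the same number are related.

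Sirtuins are enzymes that remove acyl groups from lysines and consume NAD in doing so, which links them to the metabolic state of the cell. Sirt1, Sirt6 and Sirt7 are nuclear, with Sirt7 concentrated in the nucleolus, Sirt2 is mainly cytosolic, and Sirt3, Sirt4 and Sirt5 are mitochondrial. Transcripts were measured here, and neither protein nor enzyme activity. In CHO cultures, the step from exponential to stationary phase brings nutrient depletion and slower division, while antibody production continues.

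The libraries held 1038026 to 14652646 counts on genes, with a median of 12166034. CHO-S stationary culture 1 stood apart with the lowest total and with 32.8% of its reads outside genes, against at most 18.4% in every other library. Its sirtuin values rest on 4 to 17 counts each, so sirtuin results that use stationary CHO-S, and list counts of the CHO-S phase comparison, are given with and without it. Vim, a mesenchymal marker of these fibroblast-like cells, averaged 799 to 1412 CPM (counts relative to the library total) over the 6 groups. The 7 mesenchymal markers summed to 2700 to 9497 CPM per culture, though 1 of them had no counts in exponential CHO-S. Ptprc of leukocytes and Kdr of endothelium had at most 2 counts in any culture. The endothelial markers summed to 1.17 to 7.72 CPM, the epithelial ones to at most 3.85 CPM and the ovarian follicle ones to at most 9.20 CPM. The 5 leukocyte markers summed to 2.38 to 4.03 CPM in exponential cultures and to 8.41 to 65.6 CPM in stationary ones, nearly all of it Cd68, a lysosomal protein, which averaged 41.2 CPM in stationary A0, 9.90 CPM in A1 and 32.7 CPM in CHO-S. The proliferation marker Mki67 was lower at stationary phase in A0 (log2 fold change -1.49) and A1 (-0.43), both past the threshold, and it was -0.57 in CHO-S, which was not (adjusted p = 0.172 from edgeR), while without CHO-S stationary culture 1 it was -0.93 and passed. The stress genes Ddit3 and Trib3 moved with phase as well, Ddit3 by 3.74 in A0, 2.34 in A1 and 2.49 in CHO-S and Trib3 by 3.84 in A0 and 2.28 in A1, while Trib3 in CHO-S was at 0.82 and passed only without that culture (1.02). The part of slower division, stress or the Cd68 rise in the sirtuin values was not tested. In bulk libraries, fewer cells that express a gene and less mRNA per cell cannot be told apart.

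**Figure D1:**
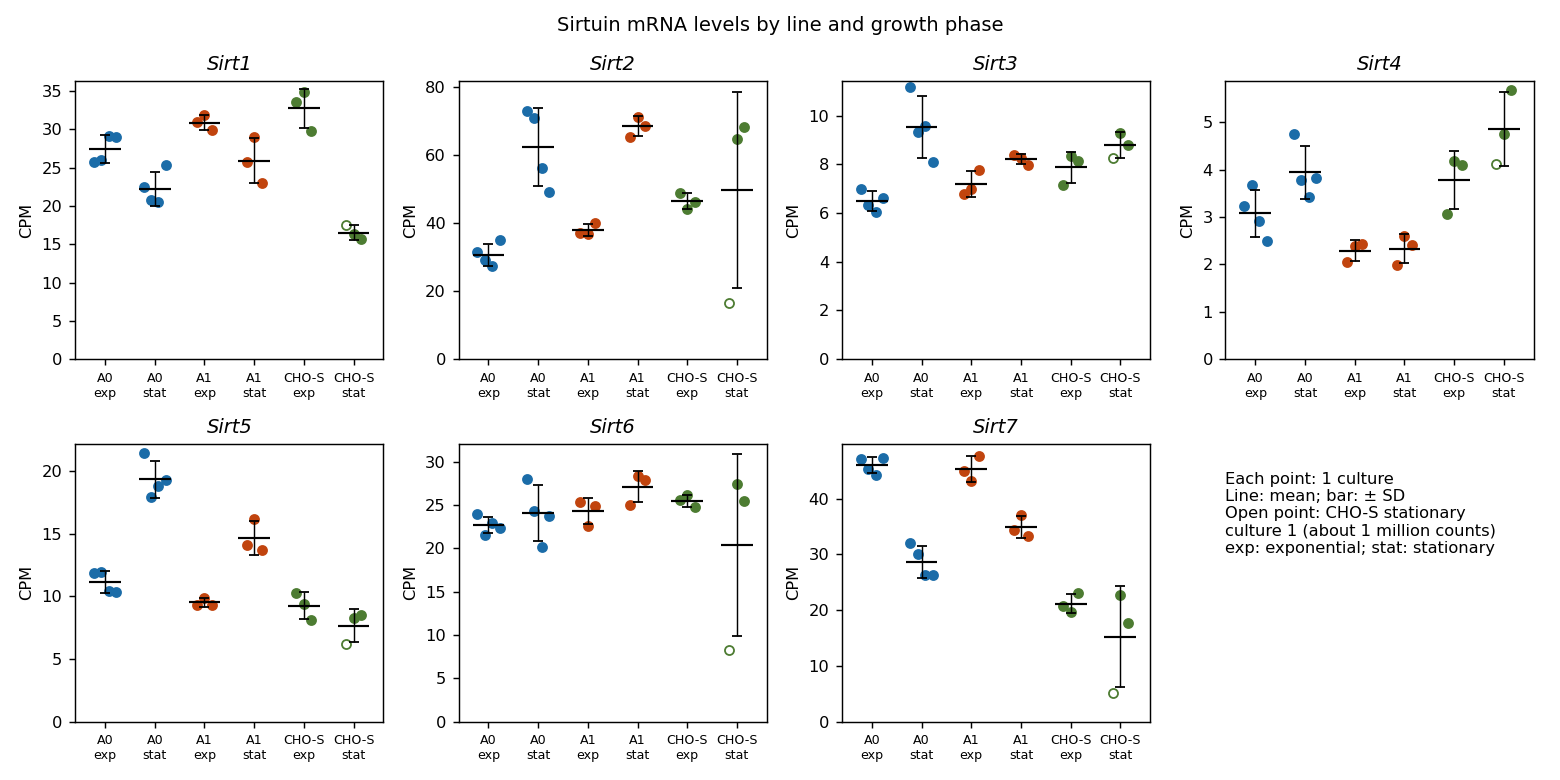
Level of each sirtuin in CPM (vertical axes from 0) in the 6 groups of cultures, with 1 point per culture, the mean as a line and the SD as a bar; the open point is CHO-S stationary culture 1. Sirt2 and Sirt5 are higher in every stationary A0 and A1 culture than in the exponential ones, Sirt7 is lower, and Sirt1 is lowest in stationary CHO-S at 15.7 to 17.5 CPM.

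Levels are CPM with trimmed-mean (TMM) normalization over the 20 cultures, and cultures are given in the order of their numbers. Fold changes are log2 values with their standard error (SE) from edgeR's quasi-likelihood test, and a gene passed with a Benjamini-Hochberg adjusted p under 0.05 over all genes tested. Stationary against exponential phase asks how the sirtuins move as growth stops. In A0, 5 of 7 sirtuins passed, 3 higher and 2 lower, where 37.7% of 20267 genes did, 17.7% higher and 20.1% lower. Their median absolute log2 fold change was 0.540 against 0.495 over all genes. In A1, 3 of 7 passed, 2 higher and 1 lower, where 33.4% of 18548 genes did, 15.6% higher and 17.8% lower. In CHO-S, 1 of 7 passed, a fall, where 13.3% of 17367 genes did, 6.81% higher and 6.48% lower. Without CHO-S stationary culture 1, 2 of 7 passed, 1 in each direction, where 47.7% of 17319 genes did. Leaving out any other CHO-S culture took the share of all genes to between 0% and 3.36%, so the CHO-S calls and their background depend on single cultures. The phases did not overlap in CPM for 5 of 7 sirtuins in A0, 5 in A1 and 1 in CHO-S, where 35.8%, 43.1% and 36.4% of genes did not. Without CHO-S stationary culture 1, Sirt2, Sirt3 and Sirt4 did not overlap in CHO-S either. Their stationary cultures were at least at 64.6, 8.81 and 4.76 CPM, against at most 48.9, 8.35 and 4.18 CPM in exponential ones. The share of all genes without overlap was not computed for that set. The sirtuin shares past the threshold were 71.4% in A0, 42.9% in A1 and 14.3% in CHO-S. The last 2 were close to the shares of all genes, and the calls in A0 and A1 ran in both directions. With edgeR's stricter low-count filter (filterByExpr), 53.3%, 47.2% and 20.5% of genes passed in A0, A1 and CHO-S.

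Sirt1 (gene ID 100763298), the nuclear deacetylase of FOXO factors and PGC-1α, fell at stationary phase in CHO-S and A0, and by more in CHO-S. In CHO-S it stood at 33.6, 34.8 and 29.8 CPM in exponential and at 17.5, 16.3 and 15.7 CPM in stationary cultures. The groups lay far apart, and CHO-S stationary culture 1 lay close to the other stationary cultures. The fall was -1.01 (SE 0.12), a 2.02-fold decrease (adjusted p = 0.00379 from edgeR), and it was -1.02 without culture 1. The call was lost without exponential culture 1 (-0.98, adjusted p = 0.0501) or 2 (-0.95, adjusted p = 0.0566), fits in which 1.83% and 0% of all genes passed.

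In A0, Sirt1 was at 25.8, 26.0, 29.1 and 29.0 CPM in exponential and at 22.4, 20.8, 20.5 and 25.3 CPM in stationary cultures. All stationary cultures lay below all exponential ones, by a narrow margin. The change was -0.31 (SE 0.11, adjusted p = 0.0313 from edgeR). Without any one of exponential cultures 3 and 4 or stationary cultures 1, 2 and 3, the adjusted p was 0.0562 to 0.0972, so this call depends on single cultures. It was also lost with upper quartile normalization (-0.23, adjusted p = 0.114 from edgeR). With only the exponential libraries marked RLT or Duplicate, the change was -0.22 (adjusted p = 0.195). Cultures 1 and 2 alone gave -0.27 (adjusted p = 0.051) and cultures 3 and 4 alone -0.34 (adjusted p = 0.104). In A1, Sirt1 was at 30.9, 31.8 and 29.96 CPM and then at 25.7, 29.0 and 23.1 CPM. These groups did not overlap either, but the change of -0.23 (SE 0.09) missed the threshold (adjusted p = 0.0551), and it passed without stationary culture 2 (-0.33, adjusted p = 0.0143).

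Sirt2 (gene ID 100768923), the cytosolic tubulin deacetylase, had the largest rise of the 7 in A0 and in A1. In A0 it went from 31.3, 29.0, 27.4 and 34.9 CPM to 73.0, 70.9, 56.1 and 49.2 CPM. Every stationary culture was above every exponential one, and stationary cultures 1 and 2 were above 3 and 4. The rise was 1.01 (SE 0.13), or 2.01-fold (adjusted p = 1.23e-05 from edgeR). Within cultures 1 and 2 alone it was 1.25, and within cultures 3 and 4 alone 0.76, both past the threshold. In A1, Sirt2 went from 37.1, 36.6 and 40.1 CPM to 65.4, 71.2 and 68.5 CPM. This was a rise of 0.87 (SE 0.07), or 1.83-fold (adjusted p = 4.15e-11), and the A1 cultures differed little among themselves.

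In CHO-S, the Sirt2 result was decided by 1 library. Exponential cultures were at 48.9, 44.2 and 46.1 CPM, and stationary cultures at 16.5, 64.6 and 68.1 CPM. Stationary culture 1 lay below the exponential cultures and the other stationary cultures above them. With all cultures the change was 0.22 (SE 0.37, adjusted p = 0.755 from edgeR), and without stationary culture 1 it was 0.51 (adjusted p = 1.24e-10).

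Sirt6 (gene ID 100760117), a chromatin deacetylase with roles in DNA repair and the control of glycolysis, passed in no line. Its span overlaps that of Ankrd24, with the same limit as given for Sirt3. It was at 23.9, 21.6, 22.9 and 22.4 CPM in exponential A0 and at 28.0, 24.3, 20.1 and 23.8 CPM in stationary A0. In A1 the values were 25.4, 22.6 and 24.9 CPM and then 25.0, 28.3 and 27.9 CPM. The groups overlapped in both lines, with log2 fold changes of 0.07 (95% confidence interval -0.17 to 0.31) in A0 and 0.18 (-0.01 to 0.37) in A1. In CHO-S, Sirt6 was at 25.6, 26.1 and 24.8 CPM and then at 8.26, 27.4 and 25.5 CPM. The low value is that of stationary culture 1. With it the change was -0.08 (-0.61 to 0.44), and without it 0.07. At unadjusted p under 0.05, where 45.1% of genes in A0, 40.9% in A1 and 29.4% in CHO-S passed, Sirt6 still passed in none of the 3 lines.

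Sirt7 (gene ID 100757186), the nucleolar member that acts with RNA polymerase I in ribosomal RNA transcription, fell in A0 and A1. In A0 it went from 47.2, 45.3, 44.3 and 47.3 CPM to 32.02, 30.002, 26.3 and 26.4 CPM. The exponential cultures were close together and all stationary ones far below. The change was -0.70 (SE 0.10), a 1.62-fold decrease (adjusted p = 3.78e-05 from edgeR). In A1 it went from 44.9, 43.2 and 47.7 CPM to 34.4, 37.1 and 33.3 CPM, again with no overlap. That change was -0.35 (SE 0.08), a 1.28-fold decrease (adjusted p = 0.000658). In a fit with all 6 groups, which shares 1 estimate of the spread, the A1 value was -0.37 (adjusted p = 0.119).

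In CHO-S, Sirt7 was at 20.8, 19.6 and 23.01 CPM in exponential and at 5.16, 22.7 and 17.7 CPM in stationary cultures. Stationary culture 1 was again the low value. The change was -0.17 (SE 0.24, adjusted p = 0.691 from edgeR), and without that culture it was -0.02 (adjusted p = 0.881).

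Sirt3 (gene ID 100762304), the main deacetylase of the mitochondrial matrix, rose in A0. It was at 7.01, 6.31, 6.03 and 6.62 CPM in exponential and at 11.2, 9.33, 9.59 and 8.09 CPM in stationary A0. The groups did not overlap. The rise was 0.54 (SE 0.14), or 1.45-fold (adjusted p = 0.0065 from edgeR). Cultures 3 and 4 taken by themselves gave 0.48 (adjusted p = 0.0795). Its span overlaps that of Ric8a in the RefSeq annotation and the strand setting of the counting is not known, so reads of the overlap cannot be assigned with certainty. Ric8a was at 0.25 in A0 and did not pass. In A1 the values were 6.79, 6.999 and 7.78 CPM and then 8.39, 8.26 and 7.99 CPM. They lay apart by little, with a change of 0.21 (SE 0.15, adjusted p = 0.313). In CHO-S, Sirt3 was at 7.14, 8.35 and 8.13 CPM and then at 8.26, 9.31 and 8.81 CPM, a change of 0.20 (SE 0.13, adjusted p = 0.347) with overlapping cultures, and of 0.22 (adjusted p = 0.219) without stationary culture 1.

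Sirt4 (gene ID 100756695), a mitochondrial member known as an inhibitor of glutamate dehydrogenase, had the lowest counts, 4 to 92 per culture, and passed in no line. In A0 it was at 3.23, 3.68, 2.91 and 2.505 CPM and then at 4.75, 3.78, 3.43 and 3.82 CPM. The change was 0.34 (95% confidence interval -0.07 to 0.74). In A1 it was at 2.05, 2.39 and 2.44 CPM and then at 1.99, 2.59 and 2.41 CPM, a change of 0.07 (-0.43 to 0.57). The A1 cultures of both phases covered the same range. In CHO-S, Sirt4 was at 3.07, 4.18 and 4.10 CPM and then at 4.13, 4.76 and 5.69 CPM, a change of 0.42 (-0.04 to 0.89), or 0.44 (adjusted p = 0.0571) without stationary culture 1. A rise of 1.01, that of Sirt2 in A0, lies outside these 3 intervals.

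Sirt5 (gene ID 100767069), which removes succinyl, malonyl and glutaryl groups from mitochondrial enzymes, rose in both antibody clones. In A0 it went from 11.9, 11.9, 10.5 and 10.4 CPM to 21.4, 17.9, 18.8 and 19.3 CPM. The groups were far apart. The rise was 0.78 (SE 0.12), or 1.72-fold (adjusted p = 5.61e-05 from edgeR). In A1 it went from 9.33, 9.90 and 9.30 CPM to 14.1, 16.2 and 13.7 CPM. That rise was 0.65 (SE 0.12), or 1.57-fold (adjusted p = 9.72e-05), and no culture overlapped. In CHO-S, Sirt5 was at 10.3, 9.36 and 8.13 CPM and then at 6.19, 8.28 and 8.54 CPM. The CHO-S groups overlapped, with a change of -0.17 (SE 0.15, adjusted p = 0.479) and of -0.14 without stationary culture 1.

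**Figure D2:**
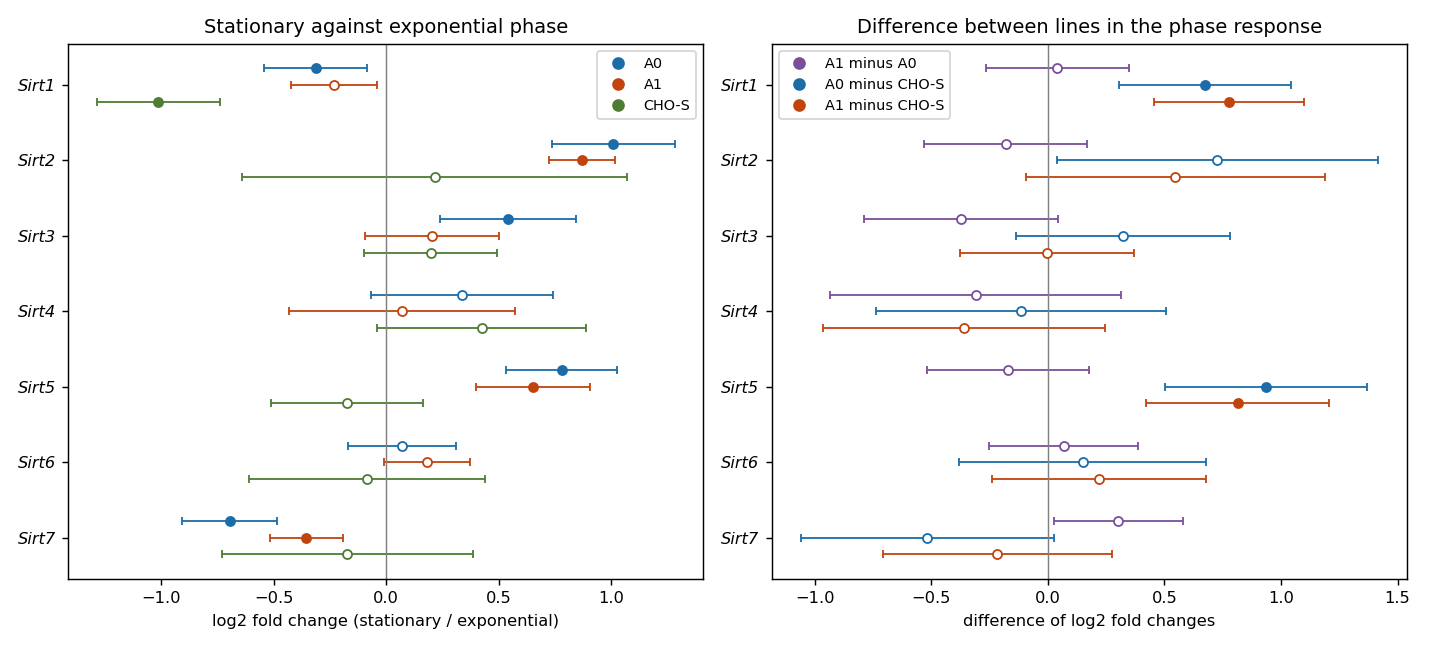
Left, log2 fold change of stationary against exponential phase for each sirtuin in A0, A1 and CHO-S; right, the difference between lines in that response. Points are edgeR estimates with 95% confidence intervals, filled where the adjusted p is under 0.05. The Sirt5 response is 0.78 in A0 and 0.65 in A1 but -0.17 in CHO-S, and the Sirt1 response of -1.01 in CHO-S lies below those of A0 and A1.

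Whether lines differ in their phase response was tested as the interaction of line and phase. Between A1 and A0, the 2 clones of 1 lineage, none of the 7 sirtuins passed in edgeR, where 8.94% of 20953 genes did, and none passed in DESeq2. At an unadjusted p under 0.05, where 21.7% of genes passed, 1 sirtuin did. This was Sirt7, whose fall was smaller in A1 by 0.30 (SE 0.13, unadjusted p = 0.0336, adjusted p = 0.18 from edgeR). The largest difference was that of Sirt3, at -0.37 (95% confidence interval -0.79 to 0.04). For Sirt2 the difference was -0.18 (-0.53 to 0.17) and for Sirt5 -0.17 (-0.52 to 0.18), so these responses were not resolved as different, and differences of moderate size remain within the intervals. The Sirt2 difference depended on the A0 cultures used: it was -0.41 (adjusted p = 0.00717) against cultures 1 and 2 alone and 0.09 (adjusted p = 0.785) against cultures 3 and 4 alone. That of Sirt7 was 0.19 (adjusted p = 0.269) and 0.43 (adjusted p = 0.0416) in the same order.

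Against CHO-S, Sirt1 and Sirt5 differed from both clones. The A0 and A1 comparisons share the CHO-S cultures, so they are not independent. A0 against CHO-S gave 2 of 7 sirtuins past the threshold, where 10.3% of 20871 genes passed, and A1 against CHO-S gave 2 of 7, where 7.6% of 19662 genes passed. The Sirt5 response was higher by 0.93 (SE 0.21) in A0 (adjusted p = 0.00564 from edgeR) and by 0.81 (SE 0.18) in A1 (adjusted p = 0.0151) than in CHO-S. The Sirt1 response was less negative than in CHO-S by 0.68 (SE 0.18) in A0 (adjusted p = 0.0176) and by 0.78 (SE 0.15) in A1 (adjusted p = 0.00629). The Sirt1 difference between A0 and CHO-S had an adjusted p of 0.0514 without CHO-S exponential culture 1 and of 0.0623 without culture 2, and the Sirt5 difference between A1 and CHO-S had 0.0598 without CHO-S stationary culture 2.

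Without CHO-S stationary culture 1, 4 sirtuins differed between A0 and CHO-S, where 17.2% of genes passed, and 3 between A1 and CHO-S, where 25.4% of genes passed. Sirt2 was then added in both, with differences of 0.54 in A0 (adjusted p = 0.0494 from edgeR) and 0.34 in A1 (adjusted p = 0.00796). Sirt7 was added in A0 at -0.60 (adjusted p = 0.0126), and was -0.35 in A1 (adjusted p = 0.051). The differences for Sirt1 and Sirt5 kept their calls without this culture.

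**Figure D3:**
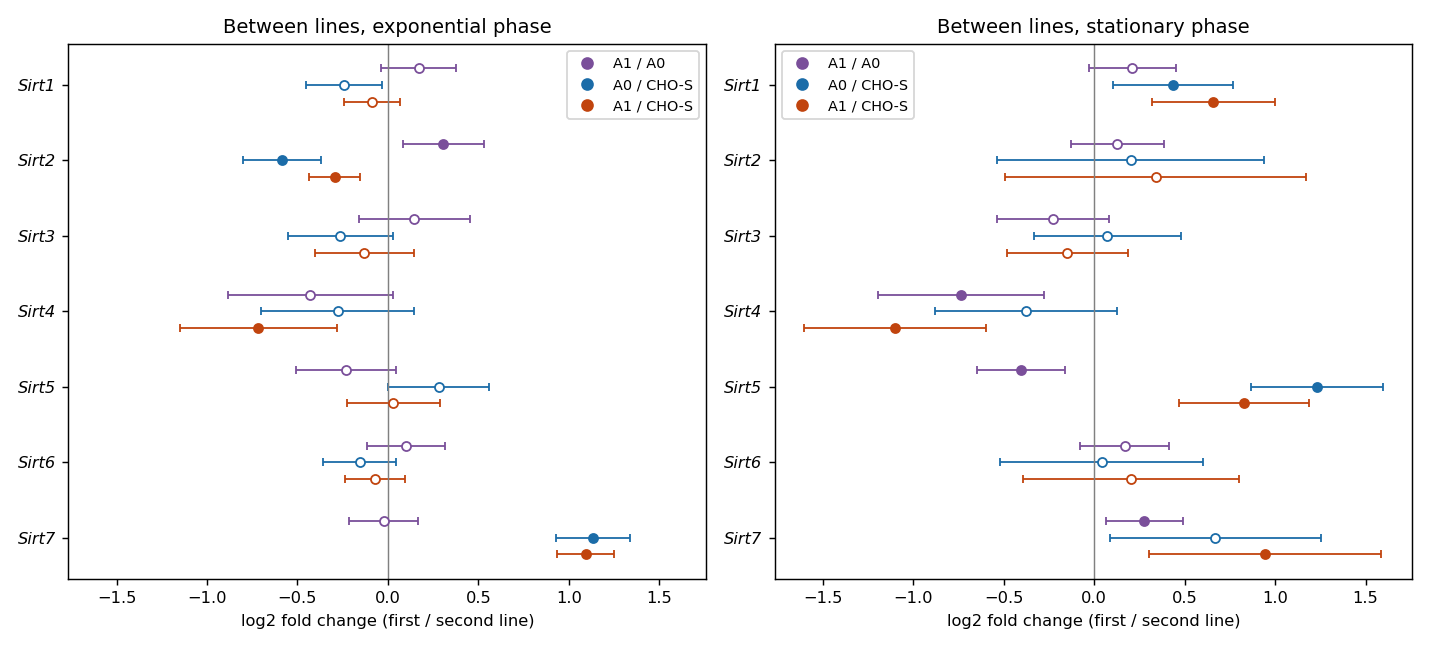
Log2 fold changes between lines at exponential (left) and stationary phase (right), as edgeR estimates with 95% confidence intervals, filled where the adjusted p is under 0.05. At exponential phase Sirt7 exceeds the CHO-S level in A0 (1.13) and A1 (1.09), and at stationary phase Sirt4 is lower in A1 than in A0 (-0.74) and CHO-S (-1.10).

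A1 against A0 asks whether the amplified high producer differs from its parent. At exponential phase 1 of 7 sirtuins passed, where 25.9% of 19946 genes did, and the clones did not overlap for 4 of 7, where 34.4% of genes did not. This was Sirt2, higher in A1 in every culture (36.6 to 40.1 against 27.4 to 34.9 CPM) by 0.31 (SE 0.11, adjusted p = 0.0434 from edgeR). The call was lost on leaving out any A1 culture or A0 culture 1, 2 or 3, with adjusted p of 0.0518 to 0.185. Sirt4 was at -0.43, Sirt5 at -0.23, Sirt1 at 0.17, Sirt3 at 0.15, Sirt6 at 0.10 and Sirt7 at -0.02, none of them past the threshold.

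At stationary phase 3 of 7 sirtuins passed between A1 and A0, where 33.7% of 19293 genes did, and the same number did not overlap between the clones, where 39.9% of genes did not. Sirt4 and Sirt5, 2 of the 3 mitochondrial members, were lower in A1. Sirt4 was at 1.99 to 2.59 CPM in A1 and at 3.43 to 4.75 CPM in A0, a difference of -0.74 (SE 0.21), or 1.67-fold lower (adjusted p = 0.0153 from edgeR). Sirt5 was at 13.7 to 16.2 CPM against 17.9 to 21.4 CPM, a difference of -0.40 (SE 0.11), or 1.32-fold lower (adjusted p = 0.0126). Without A1 culture 1 the adjusted p of Sirt4 was 0.0566, and without A1 culture 3 that of Sirt5 was 0.0665. Sirt7 was higher in A1, at 33.3 to 37.1 against 26.3 to 32.02 CPM, by 0.28 (SE 0.10, adjusted p = 0.0425), but it did not pass in DESeq2 (adjusted p = 0.0545) nor without A0 culture 3 or 4 or any A1 culture (adjusted p = 0.074 to 0.173). Sirt1 at 0.21, Sirt6 at 0.17, Sirt2 at 0.13 and Sirt3 at -0.23 did not pass. The values against A0 cultures 1 and 2 and against 3 and 4 were 0.16 and 0.41 for Sirt7 and -0.09 and 0.38 for Sirt2, while those of Sirt4 (-0.85 and -0.61) and Sirt5 (-0.43 and -0.37) were closer together.

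Against CHO-S, the antibody clones carried more Sirt7. At exponential phase Sirt7 was 2.19-fold higher in A0 (log2 1.13, SE 0.10, adjusted p = 2.01e-07 from edgeR) and 2.13-fold higher in A1 (1.09, SE 0.08, adjusted p = 1.64e-11), and these calls held under every alternative. Sirt2 was lower than in CHO-S by 0.59 (SE 0.10) in A0 and 0.29 (SE 0.07) in A1. Sirt4 was lower in A1 (-0.72, SE 0.21, adjusted p = 0.00514) and at -0.28 in A0, which did not pass. In all, 2 of 7 sirtuins passed in A0, where 49.5% of 19966 genes did, and 3 of 7 in A1, where 57.2% of 18488 genes did. Sirt1 was at -0.24 in A0 (adjusted p = 0.0533) and -0.09 in A1, Sirt3 at -0.26 and -0.13, Sirt5 at 0.28 and 0.03, and Sirt6 at -0.16 and -0.07, and none of these passed. Both shares, 28.6% and 42.9%, were below those of all genes.

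At stationary phase Sirt5 stood above CHO-S in both clones. It was 2.35-fold higher in A0 (1.23, SE 0.17, adjusted p = 0.000222 from edgeR) and 1.78-fold higher in A1 (0.83, SE 0.16, adjusted p = 0.00427). Sirt1 was higher too, by 0.44 (SE 0.15, adjusted p = 0.0394) in A0 and 0.66 (SE 0.15, adjusted p = 0.00984) in A1. Sirt4 was lower in A1 by 1.10 (SE 0.22), or 2.15-fold (adjusted p = 0.00568), and at -0.38 in A0 (adjusted p = 0.213). Sirt7 was 1.92-fold higher in A1 (0.94, SE 0.28, adjusted p = 0.0305), and its value of 0.67 in A0 did not pass (adjusted p = 0.0666). In all, 2 of 7 passed in A0, where 40% of 19007 genes did, and 4 of 7 in A1, where 34.8% of 18243 genes did.

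Without CHO-S stationary culture 1 the difference in Sirt5 was 1.22 in A0 and 0.79 in A1, that in Sirt1 0.49 and 0.66, and that in Sirt7 0.50 (adjusted p = 0.00965 from edgeR) and 0.73, all past the threshold. Sirt2 went from 0.20 to -0.08 in A0 and from 0.34 to 0.03 in A1, and Sirt6 from 0.04 to -0.13 and from 0.20 to 0.01, none past the threshold with or without it. Sirt3 went from 0.07 to 0.08 in A0 and from -0.15 to -0.18 in A1 and did not pass. Sirt4 was at -0.38 in A0 with or without it, and in A1 at -1.13 without it, past the threshold as before. The Sirt1 call in A0 was lost without any one A0 culture or without CHO-S culture 2 or 3 (adjusted p = 0.0563 to 0.165). In A1 the Sirt1 call was lost without A1 culture 2 or CHO-S culture 2 or 3 (adjusted p = 0.0671 to 0.0845), and the Sirt7 call without any one A1 culture or CHO-S culture 3 (adjusted p = 0.091 to 0.112).

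The order of the 6 group means differed from gene to gene. For Sirt5 it ran from stationary A0 (19.3 CPM) to stationary A1 (14.7 CPM), exponential A0 (11.2 CPM) and exponential A1 (9.51 CPM), and neighbours in this run did not overlap. Exponential A1 overlapped with exponential CHO-S (9.26 CPM), and this with stationary CHO-S (7.67 CPM). For Sirt7, exponential A0 (46.0 CPM) and A1 (45.3 CPM) overlapped at the top, followed without overlap by stationary A1 (34.9 CPM), stationary A0 (28.7 CPM) and exponential CHO-S (21.1 CPM), which overlapped with stationary CHO-S. Sirt1 ran from exponential CHO-S (32.8 CPM) to stationary CHO-S (16.5 CPM), and stationary CHO-S stood below all other groups without overlap. Exponential A0 was lowest for Sirt2 (30.7 CPM), below exponential A1 (38.0 CPM) and CHO-S (46.4 CPM) without overlap, while the 3 stationary groups at the top overlapped. For Sirt3, Sirt4 and Sirt6 every neighbouring pair of groups overlapped. Without CHO-S stationary culture 1, stationary CHO-S averaged 66.4 CPM for Sirt2, 26.4 CPM for Sirt6 and 20.2 CPM for Sirt7. It then stood above stationary A0 for Sirt2 and above exponential CHO-S for Sirt6. For Sirt3 it no longer overlapped with stationary A1 (at least 8.81 against at most 8.39 CPM). For Sirt4 it no longer overlapped with stationary A0, by a narrow margin (4.76 against 4.75 CPM).

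Genes around NAD and the sirtuins were counted from 7 lists with 138 genes that had a row. The lists cover NAD metabolism, ADP-ribose enzymes, sirtuin regulators, known targets and partners, and deacetylases outside the family. Below, the largest rise and the largest fall of a list are those among genes past the threshold whose cultures did not overlap. Over all genes, 17.7% were higher and 20.1% lower in A0, 15.6% and 17.8% in A1, and 6.81% and 6.48% in CHO-S. In CHO-S without stationary culture 1 it was 23.1% and 24.7%, and list counts are to be read against these. These shares include genes with as few as 1 count in each of 2 cultures. With edgeR's stricter low-count filter (filterByExpr), 53.3% of genes passed in A0, 47.2% in A1 and 20.5% in CHO-S. The lists were not recounted under that filter, and some called shares above those of all genes are below these. Listed regulators of sirtuins fell or did not pass in the phase comparisons. The list mixes inhibitors and activators of sirtuins and also holds E2f1 and Cdk1 of the cell cycle. The part of slower division in its falls was not tested. In A0, 6 of 10 tested were lower and none higher, with a list median of -0.31 against 0.001 over all genes. In A1, 7 of 10 were lower and none higher (-0.25 against 0.03), and in CHO-S 1 of 10 was lower, or 7 of 10 without stationary culture 1. The called shares were 60% in A0, 70% in A1 and 10% in CHO-S, against 37.7%, 33.4% and 13.3% of all genes, and 70% against 47.7% without that culture. Ccar2, which inhibits Sirt1, fell by 0.33 in A0 and by 0.26 in A1, with adjusted p of 0.00959 and 0.0014 from edgeR. The largest falls were those of E2f1, a cell-cycle transcription factor, in A0 (-1.29), Hic1, a transcriptional repressor of Sirt1, in A1 (-0.55) and Senp1, a SUMO protease, in CHO-S (-0.64). Rps19bp1, an activator of Sirt1, was at -0.01 in A0, -0.17 in A1 and -0.40 in CHO-S, none past the threshold, and it passed in CHO-S without stationary culture 1 (-0.29).

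Of the nuclear and cytosolic targets, 5 of 33 were higher and 16 lower in A0 (list median -0.19), 6 and 17 of 33 in A1 (-0.19), and 2 and 8 of 32 in CHO-S (-0.13), or 7 and 16 of 32 without stationary culture 1. The called shares were 63.6%, 69.7% and 31.2%, against 37.7%, 33.4% and 13.3% of all genes, and 71.9% against 47.7% without that culture. Foxo3, a stress-response transcription factor, rose by 0.48 in A0 (adjusted p = 0.00249 from edgeR) and by 0.29 in A1 (adjusted p = 0.00336). Ep300, an acetyltransferase, fell by 0.33 in A0 and was at -0.06 in A1. Foxo1 was at -0.18 in A0 and rose by 0.33 in A1. Hif1a, the hypoxia factor, was at 0.16 in A0 and rose by 0.31 in A1 and by 0.98 in CHO-S. Acss2, a cytosolic acetyl-CoA synthetase that Sirt1 activates, fell in A0 (-0.46) and A1 (-0.67) and was at 0.34 in CHO-S, which passed only without stationary culture 1 (0.59). The largest fall in A0 was that of Bub1b, a mitotic checkpoint kinase that Sirt2 stabilizes (-1.51), and in CHO-S that of Suv39h1, a histone methyltransferase (-1.36). The list holds Cdc20 of mitosis as well, and the part of slower division in its counts was not tested. Per2 of the circadian clock had the largest rise in A1 (0.60). Ppargc1a rose by 2.28 in A0, but on at most 8 counts per culture.

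Among mitochondrial targets, 6 of 26 were higher and 10 lower in A0 (list median -0.12), 5 and 14 of 25 in A1 (-0.19), and 2 and 4 of 25 in CHO-S (-0.17), or 6 and 12 of 24 without stationary culture 1. In all, 61.5%, 76% and 24% of the list passed in A0, A1 and CHO-S, against 37.7%, 33.4% and 13.3% of all genes, and 75% against 47.7% without that culture. Lonp1, the matrix protease, rose by 1.40 in A0 (adjusted p = 2.98e-08 from edgeR) and by 0.76 in A1 (adjusted p = 3.28e-12), and its value of 0.36 in CHO-S did not pass (adjusted p = 0.264), though without stationary culture 1 it was 0.55 and did. Respiratory subunit Ndufa9 fell in all 3 lines, by 0.78 in A0, 0.60 in A1 and 0.79 in CHO-S. Sod2, which detoxifies superoxide, rose by 0.27 in A0, and Idh2, an NADPH source, fell by 0.42 in A0. In A1 they were at 0.03 and -0.14 and did not pass. Glud1, the glutamate dehydrogenase that Sirt4 inhibits, fell by 0.18 in A1, rose by 0.45 in CHO-S and was at -0.10 in A0. Other extremes were the fall of Acadm (-0.84 in A0), the rise of Acadvl (0.58 in CHO-S), both of fatty acid oxidation, and the fall of Shmt2 (-1.14 in CHO-S), of one-carbon metabolism.

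The list of rRNA transcription partners of Sirt7 also holds Rrp9 and Elk4, which are not themselves factors of rRNA transcription. In A0, 1 of 16 listed genes was higher and 4 lower (list median -0.15), and in A1 1 and 6 (-0.15). In CHO-S it was none and 6 (-0.53 against 0.02 over all genes), or none and 12 without stationary culture 1. The share called was 31.2% in A0, below the 37.7% of all genes, 43.8% in A1 against 33.4%, and 37.5% in CHO-S against 13.3%, or 75% against 47.7% without that culture. Ubtf, the upstream binding factor of RNA polymerase I, averaged 273 CPM in exponential and 135 CPM in stationary A0, a change of -1.03 (SE 0.10, adjusted p = 1.12e-06 from edgeR). It fell by 0.37 in A1, and the difference between the clones was 0.61 (SE 0.13, adjusted p = 0.00475). Its value in CHO-S was -0.52 (adjusted p = 0.1), and -0.72 without stationary culture 1, which passed. Polr1a, the largest subunit of the polymerase, was at -0.02 in A0 and -0.14 in A1 and fell by 0.58 in CHO-S. Rrp9, a pre-rRNA processing factor, had the largest rise in A0 (0.58). Of the subunits of the initiation factor SL1, Taf1b had the largest rise in A1 (0.39), Taf1d the largest fall in A1 (-0.43) and Taf1a that in CHO-S (-1.10).

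The list of NAD synthesis and salvage also holds Nadk, Nadk2, Nnmt, Nnt and Acmsd, which do not build NAD from precursors. Its counts are therefore not of NAD-making genes alone. In A0, 4 of 18 listed genes were higher and 5 lower (list median 0.01), and in A1 3 and 2 of 19 (0.02). In CHO-S it was none and 1 of 17 (-0.09), or 2 and 4 of 17 without stationary culture 1. The called shares were 50% in A0 against 37.7% of all genes, 26.3% in A1 against 33.4%, and 5.88% in CHO-S against 13.3%, or 35.3% against 47.7% without that culture. Nampt, the rate-limiting enzyme of salvage, was at -0.02 in A0 (adjusted p = 0.872 from edgeR), -0.11 in A1 (adjusted p = 0.146) and 0.52 in CHO-S (adjusted p = 0.141), where it passed without stationary culture 1 (0.28). Nmnat1, the nuclear adenylyltransferase, was at -0.17, -0.18 and 0.03 in the same order, and none passed. Nadk2, the mitochondrial NAD kinase, rose by 0.41 in A0 and by 0.35 in A1. Nnmt, which methylates nicotinamide, rose by 0.50 in A0 and by 0.91 in A1, and Naprt, of the nicotinic acid route, rose by 0.42 in A0 and was at 0.26 in A1. Nadk had the largest rise in A0 (0.47), and Afmid, of the kynurenine route, the largest fall in A1 (-0.47) and CHO-S (-0.73). Kmo had the largest fall in A0 (-2.67), on at most 10 counts per culture.

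The list of other NAD consumers also holds Parg, Macrod1, Macrod2 and Adprs, which remove ADP-ribose and do not use NAD. In A0, 8 of 21 listed genes were higher and 2 lower, and in A1 5 and 1 of 21. In CHO-S it was 2 and 1 of 20, or 6 and 5 of 20 without stationary culture 1. The called shares were 47.6% in A0 against 37.7% of all genes, 28.6% in A1 against 33.4%, and 15% in CHO-S against 13.3%, or 55% against 47.7% without that culture. Parp1, the main DNA damage-activated polymerase, was at -0.10 in A0 and 0.04 in A1 and fell by 0.61 in CHO-S. Macrod1, a mitochondrial ADP-ribose hydrolase, had the largest rise in A0 (0.59) and CHO-S (1.13), and Parp11 in A1 (0.53). Parp2 had the largest fall in A0 (-0.63) and Parg in A1 (-0.20). Cd38, an NAD glycohydrolase, had at most 19 counts in any A0 or A1 culture and none in CHO-S, and its change of -0.81 in A0 and -0.06 in A1 did not pass. Of the zinc-dependent deacetylases outside the family, 1 of 9 was higher and 3 lower in A0, and 1 and 4 of 9 in A1. In CHO-S it was 1 and none of 8, or 3 and 3 of 8 without stationary culture 1. The called shares were 44.4%, 55.6%, 12.5% and 75%, against 37.7%, 33.4%, 13.3% and 47.7% of all genes. Hdac4 rose in all 3 lines, by 1.18 in A0, 0.73 in A1 and 0.52 in CHO-S, and the largest fall was that of Hdac2 in A0 (-0.75) and A1 (-0.37).

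Between A1 and A0 the lists changed in both directions. With the stricter low-count filter, 36.7% of genes passed at exponential and 47.2% at stationary phase, more than the shares of all genes given below. At exponential phase 2 of 10 regulators were higher and 1 lower in A1, 4 and 5 of 33 nuclear and cytosolic targets, 4 and 4 of 26 mitochondrial targets, 2 and 3 of 16 rRNA partners, 4 and 1 of 18 NAD synthesis genes, 2 and 4 of 21 other consumers and 2 and 2 of 9 other deacetylases. The called shares were 27.3% to 44.4%, against 25.9% of all genes, and list medians -0.21 to 0.26, against -0.04. At stationary phase 4 of 10 regulators were higher and 2 lower in A1, 11 and 9 of 33 nuclear and cytosolic targets, 6 and 8 of 26 mitochondrial targets, 3 and 5 of 16 rRNA partners, 5 and 2 of 19 NAD synthesis genes, 2 and 3 of 21 other consumers and 2 and 2 of 9 other deacetylases. There the called shares were 23.8% for other consumers, 36.8% for NAD synthesis, 44.4% for other deacetylases, 50% for rRNA partners, 53.8% for mitochondrial targets, 60% for regulators and 60.6% for nuclear and cytosolic targets, against 33.7% of all genes, and list medians were -0.07 to 0.19, against -0.002. E2f1 was higher in A1 by 0.63 at exponential and 1.37 at stationary phase, and Rrn3, an RNA polymerase I initiation factor, by 0.87 and 0.82. Nadk2 was higher in A1 by 0.72 and 0.61, and Nmnat1 by 0.37 and 0.32. Glud1 was lower in A1 by 0.49 and 0.60, and Mlycd, a malonyl-CoA decarboxylase, by 0.67 and 0.92. All of these passed in edgeR at both phases. Lonp1 was at 0.14 at exponential phase and lower in A1 at stationary phase (-0.53), and the difference in its response was -0.67 (adjusted p = 0.00115).

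For each sirtuin, the genes whose log2 CPM over the 20 cultures was most like it were found among 10587 other genes with a mean of at least 5 CPM. The cultures share line, phase and depth, so Pearson's r is a description. Sirt5 was most like Slc3a2, the heavy chain of amino acid transporters (r = 0.969), and Yars, tyrosyl-tRNA synthetase (0.958). Slc3a2 averaged 237 CPM in exponential and 668 CPM in stationary A0, 239 and 411 CPM in A1, and 197 and 159 CPM in CHO-S. Its rises of 1.48 in A0 and 0.80 in A1 passed, while -0.29 in CHO-S did not (adjusted p = 0.423 from edgeR). Asns, asparagine synthetase, taken from the list of stress markers and not by likeness, rose by 1.34 in A0 and by 1.00 in A1 and was at -0.07 in CHO-S (adjusted p = 0.83). Other stress genes of that list did not share its CHO-S value. As given above, Ddit3 rose in CHO-S too, and Trib3 passed there without CHO-S stationary culture 1.

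Sirt1 was most like Exosc2, an RNA exosome subunit (r = 0.953), and Utp20, a factor of small ribosomal subunit assembly (0.94). Exosc2 fell by 0.57 in A0, by 0.35 in A1 and by 1.35 in CHO-S. Sirt7 was most like Vps33b, of vesicle sorting (0.983), and Rad9a, of the DNA damage checkpoint (0.976). Sirt2 was most like Amdhd2 (0.958) and Rnf185 (0.956), Sirt3 like Ypel5 and Scpep1 (both 0.902), and Sirt4 like Glt8d1 (0.909) and Fbxl20 (0.9). Without CHO-S stationary culture 1, the r of these 12 pairs was 0.898 to 0.962. Sirt6 was most like Dnal4 (0.968) and Fahd2a (0.961), but without that culture their r was 0.753 and 0.596, so the likeness of Sirt6 rests on it. For 4 other sirtuins the most alike gene changed as well without that culture, to LOC100752857 for Sirt2 (0.964), Yipf2 for Sirt3 (0.915), Tbpl1 for Sirt5 (0.963, next to Slc3a2 at 0.962) and Dok1 for Sirt7 (0.978), while Exosc2 for Sirt1 and Glt8d1 for Sirt4 stayed first.

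**Figure D4:**
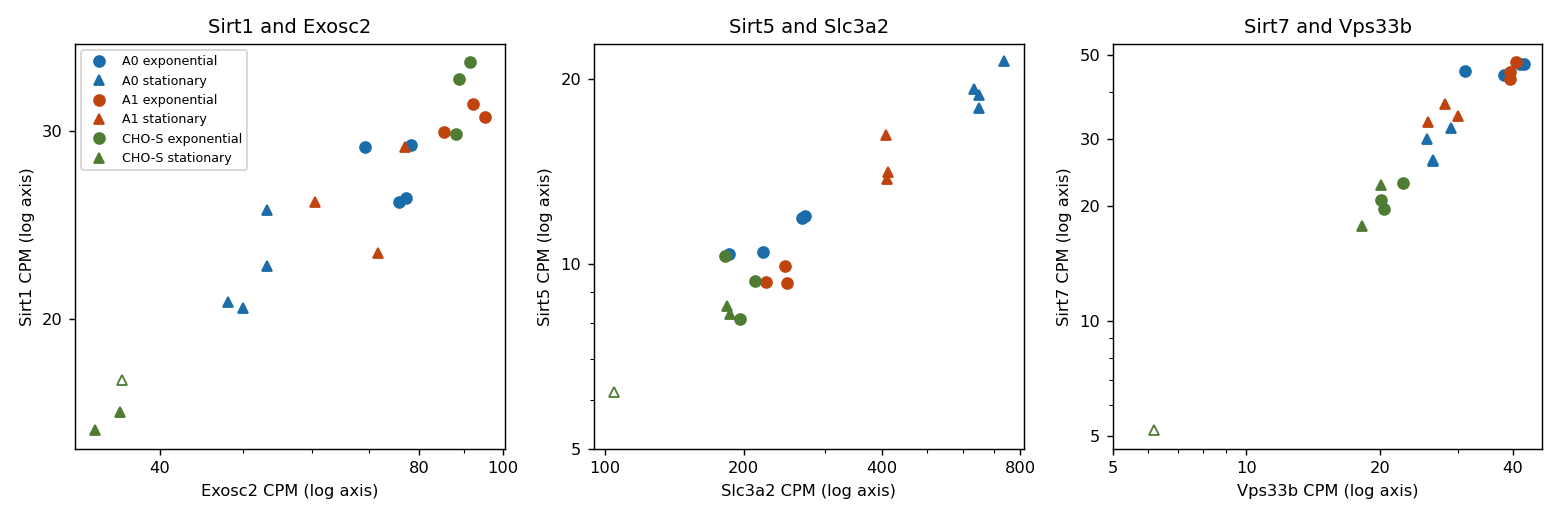
CPM of Sirt1, Sirt5 and Sirt7 against the gene most like each, both on log axes, with 1 point per culture, coloured by line, round for exponential and triangular for stationary phase, and open for CHO-S stationary culture 1. Stationary A0 cultures are at the top for Sirt5 with Slc3a2, next to stationary A1, while stationary CHO-S cultures are at the bottom for Sirt1 with Exosc2.

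Among the sirtuins themselves, the closest pair was Sirt2 and Sirt6 over the 20 cultures (r = 0.723), and without CHO-S stationary culture 1 it was Sirt2 and Sirt3 (0.855, against 0.648 with it). Sirt6 and Sirt7 went from 0.673 to -0.288 without that culture, and Sirt2 and Sirt7 from 0.186 to -0.561. Sirt4 and Sirt7 were the most opposed pair without it (-0.678).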

How the data were processed

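The authors aligned reads from a stranded mRNA kit with STAR 2.5.4b to the Chinese hamster genome, counted them with HTSeq-count 0.7.2 and deposited whole-number counts without normalization; the strand setting of the counting is not given in the sources used here. Library sizes and tests left aside its 5 summary lines, which per library put 2.31% to 11.5% of reads as not aligned and 11.9% to 32.8% outside genes.

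The 2 libraries of each exponential A0 culture were summed. A gene entered a comparison when 2 or more of its cultures had at least 1 count, and was tested with edgeR 4.0.16 (R 4.3.3; TMM, quasi-likelihood test, two-sided, Benjamini-Hochberg over all genes), in fits of the 2 groups compared, or 4 groups for differences in phase response. P-values measure the spread between these cultures, taken as independent. Alternatives covered DESeq2 1.42.0, other normalizations and filters, a replicate block, all 6 groups in 1 fit, subsets of A0 libraries and cultures, and leaving out each culture. The procedure was tested on simulated counts with independent cultures, the same spread for all genes and changes larger than most reported here. That test does not cover the smaller changes or related cultures. Correlations and gene lists without CHO-S stationary culture 1 were added after seeing the data. Members, gene lists and the rule for named genes (all sirtuins, fixed genes of each list, the largest rise and fall of a list without overlap, and the most alike genes and neighbours) were chosen with earlier results of these data known; list genes are named for the phase and A1/A0 comparisons. Of 143 genes listed in pathways, 138 had a row; results of some listed genes are not reported here.

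Deviations from group means over 10588 genes correlated at 0.19 to 0.416 for the 4 same-numbered A0 pairs of both phases, but also at 0.179 to 0.314 between cultures 1 and 2 and between 3 and 4, and at -0.385 to -0.147 across these sets. The fits reported are unpaired and carry no term for these sets. Their p-values treat the 4 A0 cultures of a phase as independent, so this shared structure is left out of them. The block by number changed no sirtuin call in the A0 phase comparison. Gene order came from the RefSeq genes of CriGri-PICRH-1.0, another build than that used by the authors, and coordinates are left out.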

Additional observations from a re-analysis of the deposited data

Results flagged for a closer look

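The phase responses of 2 sirtuins differed between lines by the test of the difference itself. The Sirt5 response lay above that of CHO-S by 0.93 (log2) in A0 and by 0.81 in A1, and the Sirt1 response by 0.68 in A0 and 0.78 in A1. Both antibody clones were compared with the same CHO-S cultures. Of these differences, only that of Sirt5 in A0 stayed past the threshold under every alternative. With the replicate block, those in A1 had adjusted p of 0.103 for Sirt5 and 0.0617 for Sirt1 from edgeR. No culture stood apart from the other 3 of its group in any of the 14 sets of 4 A0 values examined.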

How the results depend on the processing

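Of 28 sirtuin results past the threshold, 13 stayed past it under every alternative run: Sirt2 in the A0 and A1 phase comparisons and in A0 against CHO-S at exponential phase, Sirt4 in A1 against CHO-S at both phases, Sirt5 in both of those phase comparisons, in both clones against CHO-S at stationary phase and in the response of A0 against CHO-S, and Sirt7 in the A0 phase comparison and in both clones against CHO-S at exponential phase. None of the 28 changed sign. Causes of the changes below were not tested. With A0 cultures 3 and 4 alone, the number of sirtuins past the threshold was 3 for the A0 phase comparison, 0 and 5 for A1 against A0 at exponential and stationary phase, 1 for A0 against CHO-S at stationary phase, and 1 for each difference in response that involves A0. With cultures 1 and 2 alone it was 4 for A1 against A0 and for A0 against CHO-S at exponential phase, 1 for A0 against CHO-S at stationary phase and 1 for the response of A1 against A0. A1 against A0 at exponential phase gave 0 in the fit of all 6 groups and with only the RLT or Duplicate libraries of A0.

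For A1 and CHO-S cultures, and for numbers shared between lines, these correlations showed no pairing by number. Same-numbered values were -0.122 to 0.134 in A1, -0.00567 to 0.0824 in CHO-S and -0.164 to 0.0736 between lines. Different-numbered ones reached 0.21 in A1. With so few cultures per group, such correlations cannot exclude pairing. With the replicate block, 0 sirtuins passed in the CHO-S phase comparison, 4 in A0 against CHO-S at exponential and 1 at stationary phase, and 0 in the response of A1 against CHO-S, where Sirt3 was at 0.052. Over all genes the block gave 350 calls in place of 2308 for the CHO-S phase, 5043 in place of 7606 for A0 against CHO-S at stationary phase, 3435 in place of 1873 for the response of A1 against A0 and 518 in place of 1495 for that of A1 against CHO-S. The fit of all 6 groups gave 2470 in place of 6196 for the A1 phase, 4107 for the CHO-S phase and 973 for the response of A1 against A0. That response had 4588 with A0 cultures 1 and 2 alone, and the response of A0 against CHO-S had 1095 with 3 and 4 alone in place of 2159. The CHO-S phase had 8269 calls without stationary culture 1 and 0 to 574 without any other culture. Upper quartile normalization moved the share of CHO-S phase calls that were higher from 51.2% to 64.8%, and the RLT or Duplicate libraries alone moved that share for the response of A0 against CHO-S from 36.5% to 48.5%. DESeq2 moved the median of all genes to -0.152 and -0.11 in the responses of A0 and A1 against CHO-S.

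Leaving out 1 culture at a time, the number of sirtuins past the threshold was 4 to 5 for the A0 phase, 3 to 4 for the A1 phase, 0 to 2 for the CHO-S phase, 0 to 1 and 1 to 3 for A1 against A0 at exponential and stationary phase, 2 to 3 and 1 to 3 for A0 against CHO-S, 3 and 2 to 4 for A1 against CHO-S, and 0, 1 to 4 and 1 to 3 for the responses of A1 against A0, A0 against CHO-S and A1 against CHO-S. Signs changed only where the value was not past the threshold. For the phase comparisons, Sirt6 in A0 was -0.042 with cultures 3 and 4 alone and -0.004314 to 0.15 on leaving out 1 culture, Sirt4 in A1 -0.00735 to 0.15, Sirt2 in CHO-S -0.028 to 0.51, and Sirt6 in CHO-S -0.30 to 0.068 and 0.005589 with upper quartile normalization. Between lines, Sirt7 in A1 against A0 at exponential phase was 0.12 without the RLT or Duplicate libraries and -0.065 to 0.002768 on leaving out 1 culture, and Sirt2 at stationary phase -0.087 with A0 cultures 1 and 2 alone. In A0 against CHO-S at stationary phase, with cultures 3 and 4 alone, Sirt2 was -0.028, Sirt3 -0.055 and Sirt6 -0.088, and on leaving out 1 culture they were -0.076 to 0.45, -0.012 to 0.18 and -0.13 to 0.31, with Sirt6 at -0.0038 in the fit of all 6 groups. Sirt5 in A1 against CHO-S at exponential phase was -0.056 to 0.12. In the response of A1 against A0, Sirt1 was -0.034 with only the RLT or Duplicate libraries, -0.0001188 with A0 cultures 1 and 2 alone and -0.048 to 0.12 on leaving out 1 culture, Sirt6 -0.046 with cultures 1 and 2 and -0.011 to 0.15, and Sirt2 0.094 with cultures 3 and 4. Against CHO-S the responses were -0.20 to 0.073 for Sirt4 in A0, -0.033 to 0.079 for Sirt3 in A1 (0.0098 with no filter) and -0.35 to 0.090 for Sirt7 in A1. Depth limits Sirt4, with at most 92 counts per culture, and every value of CHO-S stationary culture 1.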

Other observations

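Of the genes next to a sirtuin in RefSeq gene order, those given here did not share its phase pattern throughout. Values of the neighbours of Sirt6, Tle6 and the overlapping Ankrd24, are not reported here, nor are those of Rinl beside Sirt2 and LOC100752205 beside Sirt4. Psmd13, a proteasome subunit beside Sirt3, fell by 0.53 in A0, by 0.42 in A1 and by 0.84 in CHO-S, while Sirt3 was at 0.54, 0.21 and 0.20. Dnajc12, a co-chaperone beside Sirt1, rose by 2.27 in A0 and by 1.93 in A1, where Sirt1 was at -0.31 and -0.23, and Herc4 on the other side was at 0.11 and -0.05. Of the neighbours of Sirt7, Pcyt2, of phosphatidylethanolamine synthesis, fell by 1.08 in A0 and by 0.78 in A1, and Mafg, a small MAF factor, rose by 0.59 and by 0.23. Beside Sirt5, Gfod1 was at 0.16 in A0 and 0.20 in A1 and Nol7 at 0.05 in A0, none past the threshold, and Nol7 fell by 0.24 in A1. Nfkbib, beside Sirt2, rose by 0.45 in A0 and was at -0.01 in A1. Pxn, beside Sirt4, fell by 0.60 in A0 and by 0.46 in A1.

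The libraries of an exponential A0 culture gave different values of Sirt7 in 2 of the 4 cultures. It was at 37.7 CPM in the first and 55.4 CPM in the second library of culture 1 and at 41.3 and 49.6 CPM in those of culture 2, while the pairs of culture 3 (43.9 and 43.7 CPM) and culture 4 (44.5 and 48.3 CPM) were closer. The second library is marked RLT for cultures 1 and 2 and Duplicate for 3 and 4. Sirt1 was at 29.3 and 22.8 CPM in culture 1.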
